A study of Mus musculus with 19 samples.

Results

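DN3a thymocytes are CD4/CD8 double-negative precursors that have not yet passed the pre-T-cell receptor checkpoint, and here those lacking Raptor were compared with wild-type (WT) cells on 6 of the 19 microarrays of the series. The samples were chosen by their titles, which gave 3 Rptor-/- arrays and 3 WT arrays. The DN3a cells were sorted from the thymus of C57BL/6 mice with a gate that was negative for CD4, CD8, TCRγδ, TCRβ, CD44 and CD28 and high for CD25. The Rptor-/- cells came from mice with a loxP-flanked Raptor gene (Raptorfl/fl) crossed with CD2-cre mice, so that deletion depends on where and when the CD2-driven Cre recombinase is active. The labels name no Cre for the WT mice, and they give no age. Nor do they state that the 3 samples of a group were taken from different mice, so the p-values cover the scatter among these samples and that scatter may be technical. The same comparison was made in γδ T cells (3 against 3 arrays) and in immature single-positive (ISP) cells, which are CD8-positive thymocytes of the αβ branch (3 Rptor-/- against 4 WT arrays).

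Raptor, the product of Rptor, is the subunit that defines the kinase complex mTORC1. This complex couples nutrient and growth factor supply to protein synthesis, lipid synthesis and cell growth, and it restrains autophagy. DN3a cells depend on Notch signals and rearrange their receptor genes, and those that make a pre-T-cell receptor proliferate and go on towards the αβ lineage, whereas a γδ receptor leads to the γδ lineage.

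Values were log2 signals per probe set, reduced to 1 probe set per gene for 22180 genes. The 6 DN3a arrays had medians of 6.03 to 6.13, and arrays of 1 genotype correlated at 0.994 or more. The upper quartile of Rptor-/- replicate 1 was 7.83, against 7.92 to 7.98 on the other 5 DN3a arrays, and this array received the lowest weight, 0.62, when arrays were weighted by their fit. Il2ra (CD25) lay at percentile 99.8 to 99.9 of all genes on the 6 arrays, Ptcra (pre-Tα) at 97.1 to 99.0 and Notch1 at 99.7 to 99.8, whereas Cd44 lay at 33.9 to 44.0, Cd4 at 42.4 to 47.4 and Cd8a at 30.7 to 42.1. Of the other genes for proteins the gate selected against, Cd28 lay at 65.4 to 71.8 and Cd8b1 at 52.6 to 69.4. The 4 measured sex-linked genes, Xist, Uty, Eif2s3y and Kdm5d, differed between genotypes by -0.09 to 0.04 log2 units, and none passed the test.

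The Rptor probe set read 9.65, 9.55 and 9.75 on the 3 Rptor-/- arrays and 10.34, 10.21 and 10.16 on the 3 WT arrays. All Rptor-/- arrays were below all WT arrays. The difference was -0.58 log2 units (SE 0.08, limma adjusted p = 0.00253), which leaves 66.9% of the WT signal. The exact two-sided permutation test gave p = 0.1, the smallest value that 3 against 3 arrays allow. The position of this probe set relative to the deleted exons was not known here, so the residual signal does not measure how many cells lost the gene. The other 8 measured subunits of mTORC1 and mTORC2 did not pass the test. Mtor differed by 0.00, Mlst8 by 0.00, Rictor by -0.14, and Deptor, an inhibitory subunit, by 0.30 (limma adjusted p = 0.444). Of 28 measured genes for TSC, Rheb, Rag and Ragulator regulators and for direct mTORC1 substrates, none was called and 19 were positive, with a median of 0.06. The 40 genes within 20 places of Rptor in the gene order differed by -0.43 to 0.47, and none was called (lowest limma adjusted p 0.0845).

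Between Rptor-/- and WT DN3a cells, 221 of 22180 genes differed, or 0.996%, at a limma adjusted p under 0.05. Of these, 161 genes (0.726%) were higher and 60 (0.271%) were lower in Rptor-/- cells. Differences reached 2-fold for 20 higher and 11 lower genes, and the median absolute difference among called genes was 0.58 log2 units. The 3 Rptor-/- values did not overlap the 3 WT values for any of the 221 called genes, against 17.1% of all genes tested. Without 1 array the count was 121, 88 and 212 when Rptor-/- replicates 1, 2 and 3 were left out in turn, and 98, 89 and 98 for WT replicates 1, 2 and 3. A core of 64 genes (48 higher and 16 lower) was called whichever array was left out, and many of the examples given come from it.

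Among the rises, Ifi204, a DNA-binding member of the interferon-inducible p200 family, read 5.33, 5.78 and 5.16 on Rptor-/- arrays and 3.73, 3.43 and 3.46 on WT arrays. Its difference of 1.88 (SE 0.21, limma adjusted p = 0.000647) started from WT values near the bottom of the signal range. Mpzl2, which encodes an immunoglobulin-family adhesion protein of thymocytes and thymic epithelium, was by contrast a strong signal in both genotypes. It read 11.63, 11.40 and 11.47 in Rptor-/- cells and 9.65, 9.94 and 10.10 in WT cells, a rise of 1.60 (SE 0.14, limma adjusted p = 0.000108), or 3.04-fold. Dtx1, a Notch target that encodes the ubiquitin ligase Deltex1, read 10.90, 10.67 and 10.54 on Rptor-/- arrays and 9.28, 9.38 and 9.32 on WT arrays. The rise of 1.38 (SE 0.11, limma adjusted p = 3.13e-05) was larger than the spread within either genotype. Khdc1a and Khdc1c, adjacent genes for KH-domain proteins known from oocytes and early embryos, rose by 1.69 and 1.31, although the Khdc1c call was lost without Rptor-/- replicate 2 (1.15 to 1.55 with 1 array left out, largest limma adjusted p 0.0502). Signal from probes that near copies share cannot be separated here.

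Other large rises belonged to varied functions. Smok4a, a sperm motility kinase gene, rose by 1.53, with 3 spread-out values in each genotype (9.84, 9.21 and 10.22 against 7.65, 8.70 and 8.34). Akr1c12, an aldo-keto reductase, rose by 1.44 (limma adjusted p = 0.000248), and it was the 1 member called among 13 measured aldo-keto reductases. Sfrp2, a secreted Wnt antagonist, read 7.76, 7.47 and 7.65 against 6.40, 6.30 and 6.35 and rose by 1.28. The groups lay about a whole log2 unit apart. Ogdhl, a relative of the 2-oxoglutarate dehydrogenase subunit of the TCA cycle, rose by 1.26, Uaca, a coiled-coil protein gene, by 1.35, and Scn4b, a sodium channel β subunit, by 1.14. Fbp1, the fructose-bisphosphatase of gluconeogenesis, rose by 0.98 (limma adjusted p = 0.00803), while of 25 measured glycolysis and pentose phosphate genes none was called. Surface receptors in this core were Tnfrsf8 (CD30, 1.07) and Slamf1 (CD150, 0.92). Afdn, which encodes the junction scaffold afadin, rose by 1.13 and the phosphatase gene Ptpn14 by 1.13.

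**Figure D1:**
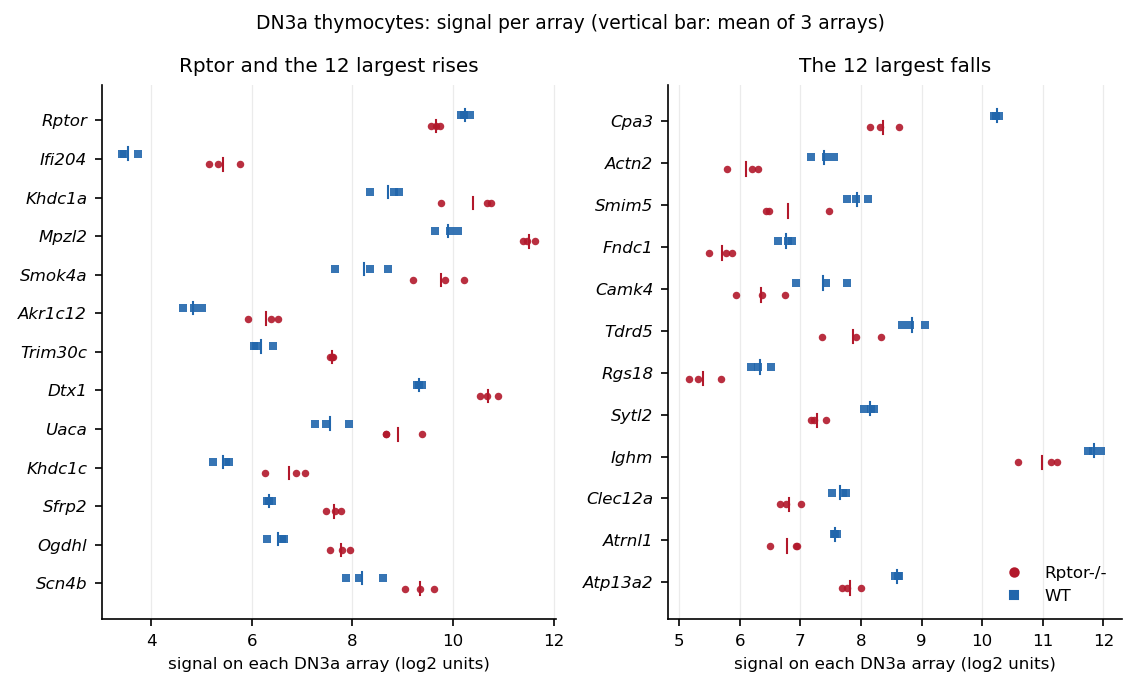
Signal in log2 units (horizontal axis) on each of the 6 DN3a arrays for Rptor, the 12 ranked genes with the largest rises (left) and the 12 with the largest falls (right). Circles are Rptor-/- arrays, squares are WT arrays and vertical bars are means of 3 arrays. Predicted genes, clone names and small RNA genes were not ranked. Circles and squares do not overlap for any gene shown, and the 3 WT values of Cpa3 lie between 10.20 and 10.28.

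The largest fall was that of Cpa3, a mast cell carboxypeptidase that early haematopoietic progenitors also express. It read 8.15, 8.62 and 8.31 in Rptor-/- cells and 10.28, 10.20 and 10.22 in WT cells, so that every Rptor-/- array was more than 1 log2 unit below every WT array. The difference was -1.88 (SE 0.10, limma adjusted p = 8.75e-07), or 3.67-fold. Kit, the stem cell factor receptor that declines as progenitors commit to the T lineage, read 9.09, 9.29 and 9.51 on Rptor-/- arrays and 10.02, 9.998 and 10.06 on WT arrays. It fell by 0.73 (SE 0.10, limma adjusted p = 0.00317), again with no overlap. In sorted bulk samples, fewer cells of a type and less RNA per cell cannot be told apart. Both genes were on the list of early progenitor genes, of which 25 were measured, 2 were lower, 1 (Mycn) was higher and 9 were positive, with a median of -0.08 against 0.01 for all genes. Over all genes, 0.271% were called lower and 0.726% higher. The Mycn call (0.54) was lost with any of the 6 arrays left out (0.42 to 0.61, largest limma adjusted p 0.177).

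Cpa3, Kit and Rgs18 were also the 3 called members of 18 measured markers of mast cells and basophils, whose median difference was -0.04. All 3 were lower, against 0.271% of all genes. The summed linear signal of that list was 1311 to 1506 in Rptor-/- cells and 2720 to 2789 in WT cells. Such a sum is carried mostly by the strongest members, here Cpa3 and Kit, and does not describe the list as a whole. Its members covered a wide range of signal on the 6 arrays. Fcer1a lay at percentile 4.9 to 6.9, Cma1 at 4.2 to 7.4, Mcpt2 at 2.9 to 5.7 and Mcpt4 at 0.8 to 2.3 of all genes. Mcpt8 lay at 27.1 to 32.5, Prss34 at 27.5 to 34.3 and Tpsb2 at 32.9 to 39.2, whereas Cpa3 lay at 74.0 to 95.1 and Kit at 85.4 to 93.6. Rgs18, a regulator of G protein signalling in haematopoietic cells, fell by 0.94, a call that was lost without Rptor-/- replicates 1 or 3 or any WT replicate (-1.10 to -0.83, largest limma adjusted p 0.115).

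Ighm, the immunoglobulin μ heavy chain locus, whose germline transcripts early T cells are known to make, fell by 0.86. It read 10.58, 11.14 and 11.24 in Rptor-/- cells and 11.75, 11.83 and 11.96 in WT cells (limma adjusted p = 0.00597), with Rptor-/- replicate 1 the lowest. It was the 1 called gene of 13 measured B-cell markers, of which 7 were positive (median 0.04). Cd79a lay at percentile 32.6 to 41.0 and Pax5 at 30.5 to 39.9, whereas Cd79b lay at 83.4 to 87.4 and Ly6d at 99.0 to 99.3. The summed signal of the list was 5725 to 6800 against 7441 to 7818 in WT cells. This sum includes Ighm itself, a strong signal, and does not describe the list as a whole. Whether other cells in the gate contributed to the falls of Cpa3, Kit, Rgs18 and Ighm was not tested.

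Further falls included genes for cytoskeleton, adhesion, vesicles and signalling. Actn2, an α-actinin of striated muscle, read 5.79, 6.21 and 6.30 on Rptor-/- arrays and 7.18, 7.55 and 7.42 on WT arrays and fell by 1.29 (limma adjusted p = 0.00379). Fndc1, a fibronectin-domain protein gene, fell by 1.05, Sytl2, a Rab27 effector in vesicle transport, by 0.87, and Atp13a2, a lysosomal polyamine transporter, by 0.78. Sik1, a salt-inducible kinase, fell by 0.71 and Itga4, the integrin α4 chain, by 0.47. Each of these 6 calls was kept whichever array was left out. Camk4, calcium/calmodulin-dependent kinase IV, was the 1 called gene of 36 measured for pre-TCR and TCR proximal signalling and calcium. It fell by 1.02, but its values (5.94, 6.37 and 6.75 against 6.93, 7.43 and 7.77) were spread widely in both genotypes, and the call was lost without Rptor-/- replicates 1 or 2 or WT replicates 2 or 3 (-1.25 to -0.82, largest limma adjusted p 0.103). Btk, a Tec-family kinase of B and myeloid cells, fell by 0.71 and lost its call without Rptor-/- replicates 1 or 2 or any WT replicate (-0.78 to -0.58, largest limma adjusted p 0.109). Smim5 (-1.13) and Tdrd5 (-0.98) were called with all arrays and lost the call without Rptor-/- replicates 1 or 3 or any WT replicate (largest limma adjusted p 0.0981 and 0.156). Atrnl1 (-0.79) lost its call without Rptor-/- replicate 1 or any WT replicate, and Clec12a (-0.85), a myeloid C-type lectin, without Rptor-/- replicate 1 or WT replicates 1 or 2 (largest limma adjusted p 0.0911 and 0.0805).

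MicroRNA genes, a group examined after values were seen, were called in 1 direction. Of 483 measured, 8 (1.66%) were lower, against 0.271% of all genes, and 0 were higher in limma. At an unadjusted p under 0.05, 12 microRNA genes were higher and 48 lower, against 1475 and 940 of all 22180 genes. The median of the microRNA genes was -0.04. Mature microRNAs pair with messenger RNAs through the seed, bases 2 to 8 from the 5′ end, and miR-181a, miR-128 and miR-142 are abundant in thymocytes or blood cells; miR-181a is known to set T-cell receptor sensitivity. The sequences below are those of the main mature products of called genes, from RefSeq on build GRCm38.p6. They show that the 2 called members of the Mir181 family share a seed that the other 3 genes shown do not have. Capitals mark the seed.
mmu-miR-181a-5p (Mir181a-2, chr2:38852741-38852763, plus strand): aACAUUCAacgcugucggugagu
mmu-miR-181b-5p (Mir181b-1, chr1:137966650-137966673, plus strand): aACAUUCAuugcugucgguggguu
mmu-miR-128-3p (Mir128-2, chr9:112118644-112118664, minus strand): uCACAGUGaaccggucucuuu
mmu-miR-142a-3p (Mir142, chr11:87756903-87756925, plus strand): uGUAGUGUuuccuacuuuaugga
mmu-miR-505-3p (Mir505, chrX:60394416-60394437, minus strand): cGUCAACAcuugcugguuuucu

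Mir128-2 read 7.98, 7.55 and 8.84 in Rptor-/- cells and 9.81, 9.82 and 9.83 in WT cells. The 3 WT arrays were nearly identical, whereas the Rptor-/- arrays spread over more than 1 log2 unit below them. The fall was 1.69 (SE 0.26, limma adjusted p = 0.00514) and was called whichever array was left out. Arpp21, the gene in whose intron Mir128-2 lies, read 10.96, 10.73 and 11.06 on Rptor-/- arrays and 11.21, 11.30 and 11.33 on WT arrays. Its groups did not overlap either, but its difference of -0.36 missed the threshold (limma adjusted p = 0.082). Mir128-1, which makes the same miR-128-3p from another locus, was a weak signal and differed by -0.24 (limma adjusted p = 0.613).

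Of the Mir181 family, Mir181a-2 read 6.65, 6.82 and 6.63 in Rptor-/- cells and 7.70, 7.41 and 7.41 in WT cells. The groups were separated and the fall of 0.80 (SE 0.12, limma adjusted p = 0.0045) was called whichever array was left out. Mir181b-1 read 7.58, 7.62 and 7.94 on Rptor-/- arrays and 9.07, 8.79 and 8.87 on WT arrays and fell by 1.20 (limma adjusted p = 0.032). Mir181a-1, its neighbour in the same cluster, read 5.42, 4.94 and 5.80 on Rptor-/- arrays and 7.09, 6.95 and 6.36 on WT arrays, a difference of -1.42 that did not pass the test (limma adjusted p = 0.15). Mir181b-2 differed by -0.87 without passing, and its groups did not overlap. The third cluster was close to 0, with -0.14 for Mir181c and 0.17 for Mir181d. Among the other called genes, Mir505 fell by 1.35, Mir1962 by 1.02, Mir142 by 0.75, Mir23b by 0.57 and Mir1198 by 0.36. Of the 8 calls, 2 were kept whichever array was left out. The other 6 were lost without at least 1 array, with a largest limma adjusted p of 0.0604 for Mir142 to 0.191: 5 without Rptor-/- replicate 1, 6 without replicate 2, 1 without replicate 3, and 5 without each WT replicate. The probe sets may measure precursor transcripts rather than mature microRNAs.

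**Figure D2:**
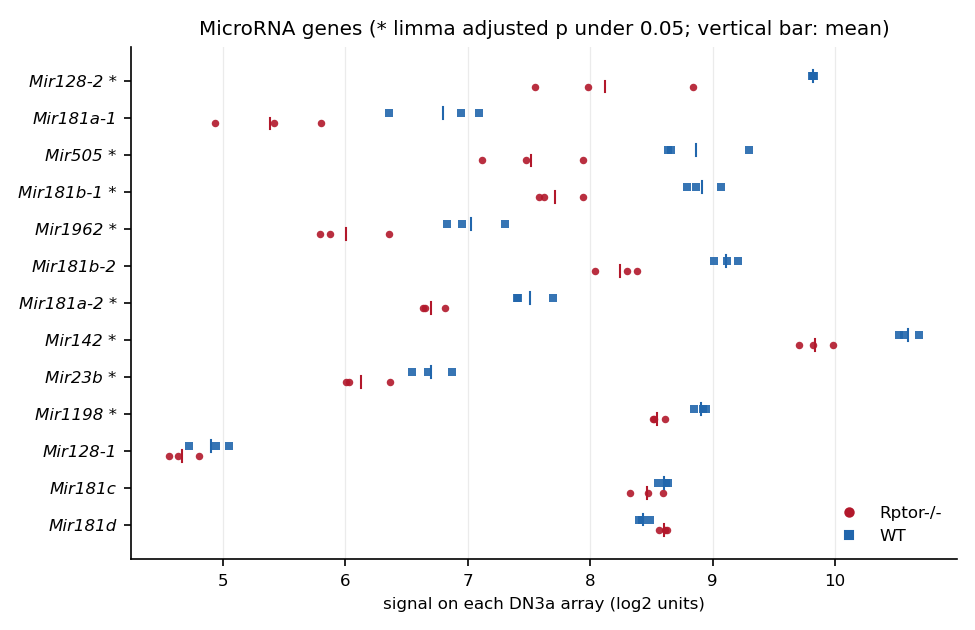
Signal in log2 units (horizontal axis) of the 8 called microRNA genes (asterisks) and of the other Mir181 and Mir128 genes on each DN3a array. Circles are Rptor-/- arrays, squares are WT arrays and vertical bars are means of 3 arrays. Circles lie below squares for each called gene, for Mir181a-1 and for Mir181b-2, whereas Mir181c and Mir128-1 overlap and Mir181d is reversed.

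Interferon-related genes made up 19 of the 161 rises in DN3a cells. Over 9 lists together, 147 genes were measured, 19 (12.9%) were higher and 0 were lower, against 0.726% and 0.271% of all genes. The lists were chosen with earlier results of these data known, so these shares are not an independent test. In all, 120 of the 147 were positive, against 53.8% of all genes. At an unadjusted p under 0.05, 65 were higher and 4 lower, against 1475 and 940 of all 22180 genes. The median was 0.20 against 0.01. Leaving out 1 array moved the median to between 0.16 and 0.22. The summed linear signal of these genes was 104200 to 107000 in Rptor-/- cells and 89740 to 94920 in WT cells. Such a sum is weighted towards the strongest signals and does not describe the lists as a whole. Of the 19 calls, those of Ifi204, Trim30c, Oasl2, Igtp and Ifitm3 were kept whichever array was left out. The other 14 were lost without at least 1 array (8 without Rptor-/- replicate 1, 11 without replicate 2, 5 without replicate 3, and 5, 10 and 14 without WT replicates 1, 2 and 3), with a largest limma adjusted p of 0.0515 to 0.174.

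The sensors of foreign nucleic acids and their adaptors had 3 higher genes of 15. Ifih1, the RNA sensor MDA5, rose by 0.45, Myd88, the Toll-like receptor adaptor, by 0.39, and Zbp1, a sensor of Z-form nucleic acids, by 0.57. Of 21 interferon receptors, kinases and transcription factors, Irf9, the DNA-binding subunit of the ISGF3 complex, was the 1 called gene (0.51, limma adjusted p = 0.0325), and that list's median was 0.04. No interferon receptor gene was called.

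Genes called higher were also found among the effectors of the response. All 7 measured genes of the oligoadenylate synthetase family, only some of whose members activate the RNA-degrading enzyme RNase L, were positive, with a median of 0.49. Oasl2 read 8.92, 8.68 and 9.31 in Rptor-/- cells and 8.08, 8.06 and 7.69 in WT cells. It rose by 1.03 (limma adjusted p = 0.0045), with no overlap and with Rptor-/- replicate 3 the highest. Oas1b rose by 0.49, and Oasl1 (0.57), Oas1g (0.68) and Oas3 (0.34) did not pass the test. Of 16 interferon-inducible GTPases, which attack pathogen vacuoles, 4 were higher (Igtp 0.75, Gbp7 0.70, Gbp5 0.80 and Iigp1 1.09), 14 were positive and the median was 0.33. The predicted gene Gm4951, which lies outside these lists, rose by 1.76 (7.13, 6.67 and 6.61 against 5.33, 4.88 and 4.93, limma adjusted p = 0.00362).

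Of 43 other interferon-induced effectors, 6 were higher. Ifitm3, which blocks viral entry at membranes, read 7.53, 7.11 and 7.53 on Rptor-/- arrays and 6.56, 6.68 and 6.30 on WT arrays and rose by 0.88 (limma adjusted p = 0.00464). Rtp4 and Usp18, a brake on interferon receptor signalling, rose by 0.66 and 0.66, Isg15, a ubiquitin-like modifier, by 0.57, Samd9l by 0.47 and Parp9 by 0.46. The Isg15 value leaned on Rptor-/- replicate 3 (8.88, 8.96 and 9.46 against 8.54, 8.56 and 8.50), and the difference ranged from 0.39 to 0.68 with 1 array left out.

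The p200 and Trim30 families are clusters of related genes. On the p200 list Ifi204 was the 1 called gene of 10, and Ifi203-ps, a p200 pseudogene next to it that is not on the list, was also higher (0.83, lost without Rptor-/- replicates 1 or 2 or WT replicates 1 or 3, largest limma adjusted p 0.0927). Other genes of the list ranged from Ifi208 (0.53) and Mndal (0.48) to Aim2, the inflammasome DNA sensor, at -0.35, and none of these 3 passed the test. In the Trim30 cluster, Trim30c read 7.56, 7.62 and 7.59 in Rptor-/- cells and 6.43, 6.05 and 6.09 in WT cells. The rise of 1.40 (SE 0.12, limma adjusted p = 0.000105) stood beside 0.50 for Trim30d, 0.26 for Trim30b and 0.17 for Trim30a, which did not pass. Members of both clusters are near copies of each other, so their probe sets may share signal. Of 20 measured MHC class I and peptide-loading genes, 19 were positive with a median of 0.25. At an unadjusted p under 0.05, 13 were higher and 0 lower, against 1475 and 940 of all 22180 genes. Nlrc5, the transactivator of MHC class I genes, was the 1 that passed after adjustment (0.54, limma adjusted p = 0.0439).

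**Figure D3:**
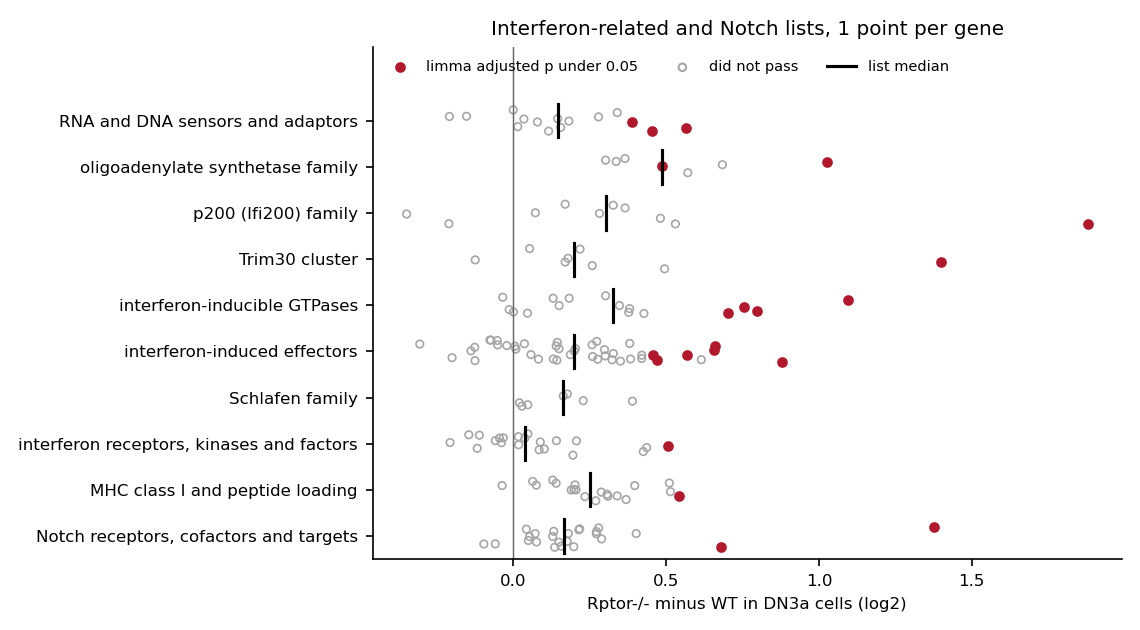
Log2 difference between Rptor-/- and WT DN3a cells (horizontal axis) for each measured gene of the 9 interferon-related lists and the Notch list. Filled points passed limma at an adjusted p under 0.05, open points did not, and vertical bars are list medians. All filled points lie right of 0, and the medians run from 0.04 for receptors, kinases and factors to 0.49 for oligoadenylate synthetases.

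Promoters of called genes were searched for GAAANNGAAA, the core of the interferon-stimulated response element bound by ISGF3 and IRF factors, on both strands from 250 bases before to 50 bases after the start of the gene (RefSeq, GRCm38.p6). The core was present in 3.44% of all 32851 promoters of that length and in 3.87% of the 16990 tested genes that have one. It was found in 11 of 125 promoters of higher genes (8.80%) and in 0 of 30 promoters of lower genes. At a looser threshold, a limma adjusted p under 0.1, it was found in 15 of 165 promoters of higher genes (9.09%). At that threshold 4 of 60 promoters of lower genes had it (6.67%). The 30 promoters are too few to show a difference between higher and lower genes. Of the 11 called higher genes with a promoter that are on an interferon-related list, 7 had the core (63.6%), as did 44 of 106 members that were not called (41.5%). Of the 114 higher genes outside those lists, 4 had it (3.51%), including Gm12250 and Mapkapk3. The lists need not hold every interferon-inducible gene, so the 114 may include some, above all among genes with provisional names. A match describes letters and is neither a binding site nor a cause. The 100 bases before the start are shown for 6 called genes, to let the spacing and orientation of the matches be compared. Capitals mark the core, which reads GAAANNGAAA or, where it lies on the other strand, TTTCNNTTTC.
Isg15 (chr4:156200819-156200918, minus strand): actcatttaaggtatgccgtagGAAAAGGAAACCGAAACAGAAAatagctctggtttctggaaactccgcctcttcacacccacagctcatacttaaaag
Igtp (chr11:58199456-58199555, plus strand): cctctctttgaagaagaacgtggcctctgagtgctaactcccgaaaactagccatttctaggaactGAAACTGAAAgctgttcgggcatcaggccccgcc
Gm12250 (chr11:58183743-58183842, plus strand): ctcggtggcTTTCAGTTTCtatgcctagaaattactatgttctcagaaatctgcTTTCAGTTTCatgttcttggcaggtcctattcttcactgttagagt
Gbp7 (chr3:142530236-142530335, plus strand): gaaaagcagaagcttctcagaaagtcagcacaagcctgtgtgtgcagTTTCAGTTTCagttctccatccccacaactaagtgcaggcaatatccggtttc
Myd88 (chr9:119340019-119340118, minus strand): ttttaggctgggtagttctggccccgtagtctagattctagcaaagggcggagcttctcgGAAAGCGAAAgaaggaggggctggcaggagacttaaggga
Mapkapk3 (chr9:107289397-107289496, minus strand): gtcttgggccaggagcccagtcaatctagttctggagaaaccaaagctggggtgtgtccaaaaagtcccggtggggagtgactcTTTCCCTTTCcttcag

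In the Isg15 promoter 3 overlapping matches begin 78, 72 and 66 bases before the start, and Gm12250 has 2 separate matches at 91 and 46 bases. The single matches of Gbp7, Myd88, Igtp and Mapkapk3 begin 53, 40, 34 and 16 bases before the start. Igtp and Gm12250 are neighbours on chromosome 11, and Gm12250 read 8.39, 8.50 and 8.43 in Rptor-/- cells and 7.83, 7.93 and 7.74 in WT cells. The groups did not overlap and the rise was 0.61 (limma adjusted p = 0.00803), lost without Rptor-/- replicate 2 or WT replicate 3 (largest limma adjusted p 0.0507). A second interferon motif, the γ-activated sequence TTCNNNGAA, was in 12.0% of higher, 3.33% of lower and 9.15% of all tested promoters. TGGGAA, the core bound by the Notch effector RBPJ, was in 31.2%, 33.3% and 27.3%.

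Notch-related genes were mostly positive, with small differences. Of 24 measured receptors, cofactors and targets, 22 were positive (median 0.17), 2 were called higher and 0 lower, and 8 were higher at an unadjusted p under 0.05. Of all 22180 genes 53.8% were positive, 0.726% were called higher and 1475 were higher at that unadjusted p. The called genes were Dtx1 and Ptcra, which encodes the pre-Tα chain. Ptcra read 11.39, 11.46 and 11.42 in Rptor-/- cells and 10.70, 10.70 and 10.84 in WT cells. The groups were well apart, a rise of 0.68 (SE 0.12, limma adjusted p = 0.0132), but the call was lost without Rptor-/- replicate 2 or WT replicates 1 or 2 (largest limma adjusted p 0.0718). The receptors Notch1 and Notch3 differed by 0.15 and 0.28 and did not pass.

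Among 21 measured genes of receptor recombination and the DN3 stage, Mpzl2, Ptcra and Cd3d were higher. The shares over all genes were 0.726% higher and 0.271% lower. Cd3d, a CD3 chain, rose by 0.43 near the top of the signal range, a call lost without Rptor-/- replicates 1 or 2 or any WT replicate (largest limma adjusted p 0.086). Rag2, a subunit of the recombinase, differed by 0.29 (limma adjusted p = 0.543) and Il2ra by 0.29 (limma adjusted p = 0.232). Of 17 coreceptor and double-positive transition genes, 7 were positive and the median was -0.11. The 1 called was the chemokine receptor gene Ccr9, which fell by 0.65 and lost its call without Rptor-/- replicate 1 or WT replicates 1 or 3 (largest limma adjusted p 0.068).

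Transcription factors of T-cell commitment had 2 of 32 called higher and 1 lower (median 0.03), against 0.726% higher and 0.271% lower of all genes. Ets2 read 10.16, 10.15 and 10.08 in Rptor-/- cells and 9.02, 8.97 and 9.14 in WT cells. Its rise of 1.09 (SE 0.09, limma adjusted p = 3.13e-05) had hardly any spread within a genotype. Lef1, the Wnt-responsive factor needed at the DN3 to double-positive steps, read 11.75, 12.00 and 11.72 on Rptor-/- arrays and 11.18, 10.98 and 11.03 on WT arrays and rose by 0.76 (limma adjusted p = 0.000647). Ikzf2, the Ikaros-family factor Helios, fell by 0.65, a call lost without Rptor-/- replicates 1 or 2 or WT replicates 2 or 3 (largest limma adjusted p 0.0867). Bcl11b, which fixes T-cell identity, differed by 0.00 (limma adjusted p = 0.995). Of 12 measured γδ T-cell markers, Etv5 was higher (0.70, lost without Rptor-/- replicate 2 or WT replicates 1 or 2, largest limma adjusted p 0.0968) and 5830411N06Rik, a scavenger receptor gene, was lower. It read 7.11, 7.54 and 7.11 against 8.36, 8.34 and 8.23 and fell by 1.05 (limma adjusted p = 0.000593). Of 12 markers of mature αβ T cells and 17 of NK and innate lymphoid cells none was called.

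Receptors for cytokines and adhesion, and genes of signal strength, held a few called genes each. Over all genes, 0.726% were called higher and 0.271% lower. Of 26 cytokine receptor genes 2 were lower, Il4ra (interleukin-4 receptor α chain) by -0.37 and Il10rb by -0.38. Of 25 chemokine receptor and integrin genes Itga6, the integrin α6 chain, was higher (0.52), while Itga4 and Ccr9 were lower. Itga6 read 8.62, 8.60 and 8.55 in Rptor-/- cells and 7.99, 8.02 and 8.19 in WT cells, and Itga4 read 11.64, 11.69 and 11.70 on Rptor-/- arrays and 12.17, 12.14 and 12.13 on WT arrays. The 2 integrin chains thus changed in opposite directions with no overlap of the groups. Among 32 immediate early and signal strength genes Klf6 was higher (0.34) and Tnfaip3, the NF-κB brake A20, lower (-0.38). With 1 array left out, the calls of Il4ra, Il10rb and Klf6 were lost for any of the 6 arrays, that of Tnfaip3 for each but WT replicate 3, and that of Itga6 for Rptor-/- replicate 2 and WT replicates 1 and 2 (largest limma adjusted p 0.164, 0.209, 0.185, 0.207 and 0.0711). Tnfrsf18, the co-stimulatory receptor GITR, rose by 0.50 and lost its call without Rptor-/- replicates 2 or 3 or WT replicates 1 or 3 (largest limma adjusted p 0.109).

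Lyz2, lysozyme of myeloid cells, was the 1 called gene of 22 measured myeloid markers. It read 7.59, 7.98 and 8.40 in Rptor-/- cells and 6.77, 7.27 and 6.81 in WT cells and rose by 1.04. The call was lost without Rptor-/- replicate 2 or WT replicates 1 or 3 (largest limma adjusted p 0.0682). The list's median was -0.07, its summed signal was 1563 to 1671 against 1559 to 1609, and Adgre1 (F4/80) lay at percentile 23.8 to 32.3. Epcam, an epithelial adhesion gene, rose by 0.67 and was the 1 called of 17 thymic stroma markers (median -0.02). Its call was lost without Rptor-/- replicate 2 or WT replicates 1 or 3 (largest limma adjusted p 0.0927). The stroma list's summed signal was 4320 to 4481 against 3960 to 4150 in WT cells, with Foxn1 at percentile 35.8 to 39.7 and Psmb11 at 29.7 to 35.4, Ccl25 at 65.0 to 68.9, Pdgfrb at 90.5 to 95.5 and Pecam1 at 94.9 to 97.1. The part of such cells in these results was not tested. Of 16 dendritic cell markers 1, Ccr9, was lower and 1 was positive (median -0.11, summed signal 4793 to 5510 against 5335 to 5600).

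Genes of S phase and mitosis had negative medians, but none of them passed the test. Of 39 measured S phase and DNA replication genes 2 were positive, the median was -0.20, and 12 were lower at an unadjusted p under 0.05, with 0 called by limma in either direction. Over all 22180 genes, 53.8% were positive and 940 were lower at that unadjusted p. Cdc6, which loads the replicative helicase, read 8.33, 8.56 and 8.93 in Rptor-/- cells and 9.10, 8.98 and 9.29 in WT cells, a difference of -0.52 (limma adjusted p = 0.156). Of 34 mitosis genes 3 were positive, the median was -0.22 and 5 were lower at an unadjusted p under 0.05, again with 0 called. Mki67, the Ki-67 gene, read 10.37, 10.68 and 10.99 on Rptor-/- arrays and 10.89, 11.11 and 11.14 on WT arrays, so that the groups overlapped. Both medians leaned on Rptor-/- replicate 1: without it they were -0.10 for S phase and -0.04 for mitosis. Cdkn1a, the cell cycle inhibitor p21, read 11.30, 11.04 and 11.12 on Rptor-/- arrays and 10.58, 10.58 and 10.65 on WT arrays. It rose by 0.55 (limma adjusted p = 0.0242) and lost its call with any of the 6 arrays left out (largest limma adjusted p 0.114). It was the 1 called gene among 23 measured p53 targets (median 0.07).

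Metabolic gene lists of processes that mTORC1 is known to promote stayed near the DN3a median of all genes, 0.01. They had medians of 0.04 for 19 cholesterol synthesis genes, 0.00 for 18 fatty acid synthesis genes, -0.02 for 39 MYC target and ribosome biogenesis genes, 0.02 for 63 oxidative phosphorylation genes, 0.04 for 65 mitochondrial ribosomal proteins, -0.08 for 25 glycolysis and pentose phosphate genes and -0.04 for 16 purine and pyrimidine synthesis genes. None of these lists had a gene called lower, against 0.271% of all genes, a share at which lists of these sizes would hold few or none. Dhcr7, the last enzyme of cholesterol synthesis, rose by 0.47 (limma adjusted p = 0.00928) and Fads3, a fatty acid desaturase family gene, by 0.72. The Dhcr7 call was lost without Rptor-/- replicate 2 or WT replicates 2 or 3 and that of Fads3 without Rptor-/- replicates 1 or 2 or WT replicates 1 or 3 (largest limma adjusted p 0.0685 and 0.118). Of 36 lysosome and autophagy genes 27 were positive and 7 were higher at an unadjusted p under 0.05, with 0 called by limma. Of all 22180 genes 53.8% were positive and 1475 were higher at that unadjusted p. Gabarapl1, an autophagosome protein gene, read 9.996, 9.90 and 9.73 on Rptor-/- arrays and 9.48, 9.44 and 9.49 on WT arrays. Its groups did not overlap, but 0.41 did not pass the test (limma adjusted p = 0.099). Of 23 FOXO factors and targets 2 were higher and 1 lower, against 0.726% higher and 0.271% lower of all genes. The called members included Txnip, an inhibitor of glucose uptake (0.41), and Trib1 (-0.39). Both calls were lost without at least 5 of the 6 arrays in turn (largest limma adjusted p 0.186 and 0.135). The inducible chaperone gene Hspa1a had values of 10.67, 10.35 and 11.39 in Rptor-/- cells and 9.73, 8.79 and 7.68 in WT cells. This difference of 2.07 was larger than that of any called gene but did not pass the test (limma adjusted p = 0.0886).

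**Figure D4:**
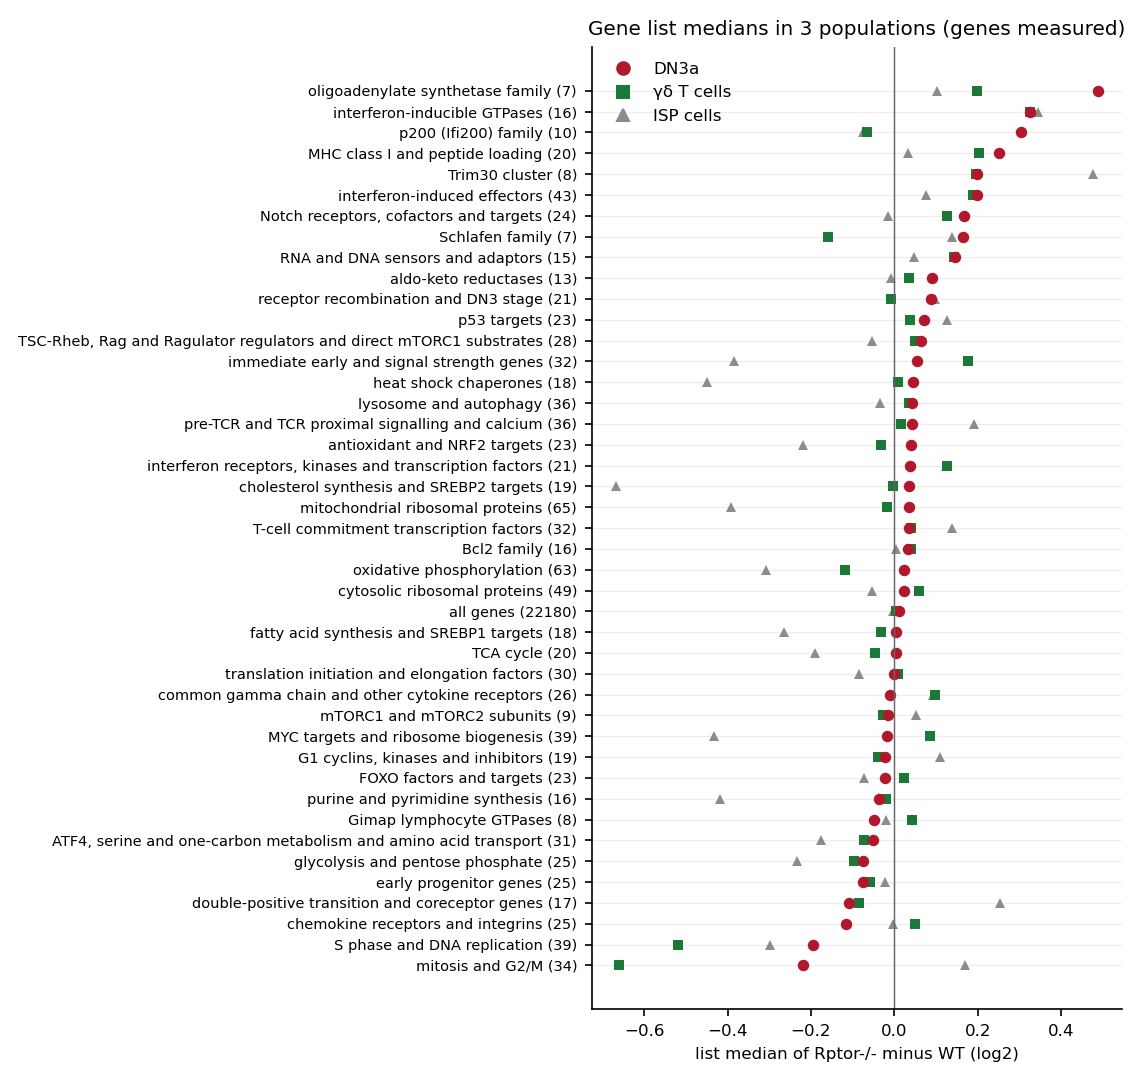
Median log2 difference between Rptor-/- and WT cells (horizontal axis) of the genes of each list, with the number measured in brackets. Circles are DN3a cells, squares γδ T cells and triangles ISP cells. DN3a medians run from -0.22 for mitosis to 0.49 for oligoadenylate synthetases, and cholesterol synthesis genes lie at 0.04 in DN3a cells and at -0.67 in ISP cells.

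The effect in DN3a cells was set beside that in the other populations, which share no arrays with it. DN3a and γδ differences came from the same fit with a shared variance per gene, so their shared calls are not independent. ISP cells had a fit of their own, so the overlaps with γδ T cells and with ISP cells are not directly comparable. In γδ T cells 618 genes (2.79%) were called and in ISP cells 1312 (5.92%). Of the 221 genes called in DN3a cells, 49 were called in the same direction in γδ T cells, which is 22.2% of the DN3a calls and 7.9% of the γδ calls, and 3 were called in the opposite direction. With ISP cells 28 were shared in direction (12.7% of the DN3a calls and 2.1% of the ISP calls) and 7 were opposite. The 161 genes higher in DN3a cells had a median of 0.57 there, 0.21 in γδ T cells and 0.11 in ISP cells, and 129 and 104 of them were positive. The 60 lower genes had medians of -0.65, -0.17 and 0.06. Calls in 1 direction in all 3 populations were made for 8 genes, each of them higher: Afdn, Arrdc4, Blcap, Dtx1, Gm20559, Igtp, Tmem176b and Tnfrsf18.

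**Figure D5:**
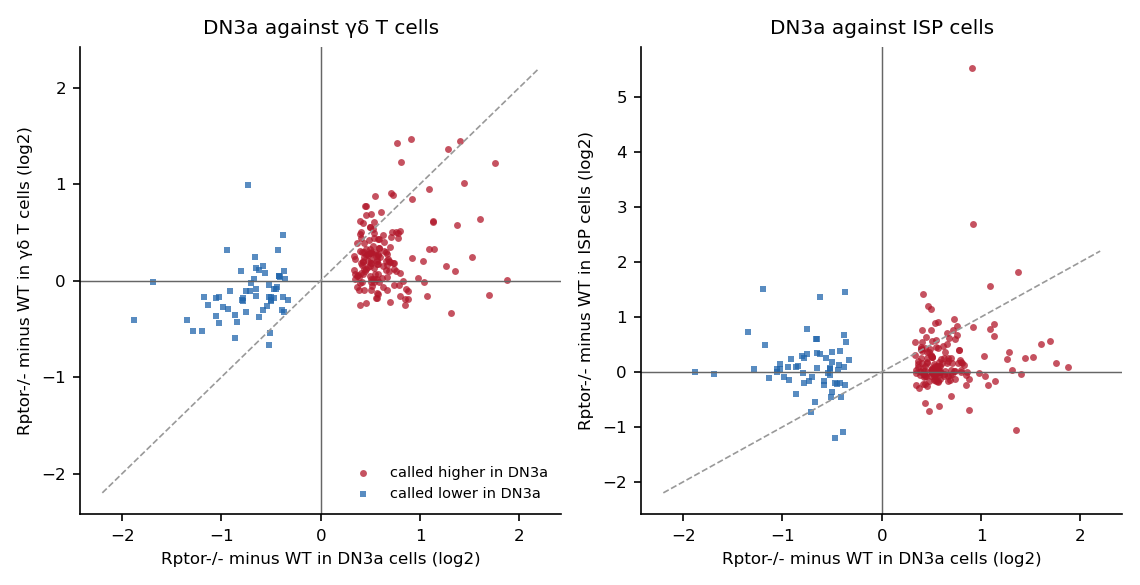
Log2 difference between Rptor-/- and WT cells in γδ T cells (left) and ISP cells (right), on the vertical axes, against that in DN3a cells, on the horizontal axes, for the 221 genes called in DN3a cells. Circles were called higher and squares lower in DN3a cells, and dashed lines mark equal differences. Circles have medians of 0.21 in γδ T cells and 0.11 in ISP cells, and squares -0.17 and 0.06.

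A test of the difference between effects (an interaction term) was called for 97 genes between DN3a and γδ T cells (0.437%) and for 1553 between DN3a and ISP cells (7.0%). These included 29 and 126 of the 221 DN3a genes, and 25 had both. Against ISP cells the DN3a effect was the more positive for 911 of the 1553 genes (58.7%), and for 1495 of 1904 (78.5%) when each array was centred on its median, which raised the all-gene median of that difference to 0.11. Cpa3 was 1 of the 25 genes with both interactions called: -1.88 in DN3a cells stood against -0.40 in γδ T cells and 0.00 in ISP cells (limma adjusted p of the differences 0.000197 and 1.57e-07). Kit fell in DN3a cells and rose by 0.99 in γδ T cells (limma adjusted p = 0.000106), a difference in effect of -1.72 (limma adjusted p = 6.16e-05). Ifi204 rose in DN3a cells alone of the 3, with 0.01 in γδ T cells and 0.10 in ISP cells (limma adjusted p of the differences 0.0113 and 0.000566). Ifitm3 differed likewise, at 0.88, -0.19 and -0.69. Khdc1a (1.69, -0.15 and 0.57), Tnfrsf8 (1.07, -0.16 and -0.24) and Ogdhl (1.26, 0.15 and 0.24) were also among the 25.

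Other rises were shared. Trim30c rose by 1.40 in DN3a cells and by 1.45 in γδ T cells, with -0.05 in ISP cells, and Sfrp2 by 1.28 and 1.36. Dtx1 rose in all 3 populations, by 1.38, 0.57 and 1.81, and its effect in DN3a cells exceeded that in γδ T cells by 0.80 (limma adjusted p = 0.0317). Ets2 rose by 1.09 in DN3a cells, 0.33 in γδ T cells, where it did not pass, and 1.57 in ISP cells. Gm20559, a predicted gene next to Samd9l, rose by 0.92, 0.84 and 2.70. Of the microRNA genes, Mir181a-2 was called against both other populations, with 0.09 in γδ T cells (limma adjusted p of the difference 0.0343) and 0.29 in ISP cells (limma adjusted p of the difference 0.000578). Mir128-2 differed by -0.02 and -0.04 in those cells, and its effect in DN3a cells differed from that in ISP cells (limma adjusted p = 0.00751). The difference in effect from γδ T cells, -1.68, did not pass (limma adjusted p = 0.0709). Its ISP means, 3.19 in Rptor-/- and 3.23 in WT cells, lay below the medians of the ISP arrays. The 147 interferon-related genes had 24 higher and 2 lower in γδ T cells (median 0.17) and 24 higher and 4 lower in ISP cells (median 0.11). Over all 22180 genes, 397 were higher and 221 lower in γδ T cells, and 564 higher and 748 lower in ISP cells. For 2 and 25 of the 147 the effect differed from that in DN3a cells, against 97 and 1553 of all genes.

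The cell cycle and metabolic lists, in which limma called few DN3a genes, were set beside those of the other populations. Over all 22180 genes, 397 were called higher and 221 lower in γδ T cells, and 564 higher and 748 lower in ISP cells. The S phase median was -0.52 in γδ T cells, with 24 of 39 genes lower, and -0.30 in ISP cells, with 13 lower. The mitosis median was -0.66 in γδ T cells, with 16 of 34 lower, and 0.17 in ISP cells, with 2 higher and 1 lower. In ISP cells the medians were -0.67 for cholesterol synthesis (11 of 19 lower), -0.43 for MYC targets and ribosome biogenesis (18 of 39 lower), -0.39 for mitochondrial ribosomal proteins (30 of 65 lower) and -0.31 for oxidative phosphorylation (30 of 63 lower). In γδ T cells the same 4 lists had medians of -0.003 (0 higher, 2 lower), 0.09 (1 higher, 0 lower), -0.02 (0 higher, 1 lower) and -0.12 (0 higher, 3 lower). The effect in ISP cells differed from that in DN3a cells for 14, 19, 29 and 25 genes of these 4 lists, against 1553 of all 22180 genes. Some single genes were named for a small p-value of that difference in effect, so they are not further evidence for it. Fads2, a fatty acid desaturase, differed by 0.10 in DN3a cells and fell by 1.70 in ISP cells. Sqle, squalene epoxidase, differed by 0.08 and -1.39. Id3, a target of receptor signal strength outside the cell cycle and metabolic lists, differed by 0.02 and -2.29. ISP arrays lie on another scale (medians of 3.80 to 3.88 against 6.03 to 6.13), so scale and population cannot be told apart in the interactions with ISP cells.

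Called genes lay next to each other on the chromosome in 14 runs that held 29 genes. Several runs were of related genes, such as Gbp5 and Gbp7, Khdc1a and Khdc1c, Ifi204 and Ifi203-ps, Tmem176a and Tmem176b, and the sodium channel subunit genes Scn2b and Scn4b. Tmem176b read 9.63, 9.73 and 9.63 in Rptor-/- cells and 9.07, 9.16 and 9.15 in WT cells, with a rise of 0.53, and Tmem176a rose by 0.64. Unrelated neighbours were Isg15, Perm1 and AW011738, which rose by 0.57, 0.59 and 0.78, Cep170b and Pld4, an endosomal exonuclease (0.40 and 0.78), and Mapkapk3 and Cish, an inhibitor of cytokine signalling (0.46 and 0.77). Blcap and Nnat, an imprinted pair, rose by 0.72 and 0.91, but a second Nnat probe set gave -0.06 (limma adjusted p = 0.923). In 2 runs the directions were mixed (Atrnl1 with Gfra1, Scarna8 with Plin2). Of the 29 calls, 12 were kept whichever array was left out and 17 were lost without at least 1: 9, 16 and 4 without Rptor-/- replicates 1, 2 and 3, and 12, 12 and 15 without WT replicates 1, 2 and 3 (largest limma adjusted p 0.0502 to 0.177).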

How the data were processed

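Total RNA from sorted thymocytes, 12 ng per array per the labels, was amplified, biotin-labelled and hybridised. The deposited values were log2 signals per probe set, which the authors made by RMA in Partek 6.6, per the submitters' processing notes; RMA corrects background, equalises the arrays' distributions and summarises probes, and its settings are not known here. The 7 ISP arrays had medians of 3.80 to 3.88 and the 12 DN3a and γδ arrays 6.03 to 6.13, so ISP arrays were treated as normalized separately. Precision is limited by the number of arrays. A typical (median) SD among the 3 DN3a arrays was 0.113 for Rptor-/- and 0.0929 for WT.

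The probe annotation gave exactly 1 gene symbol to 23521 of the 41345 probe sets, several to 1814 and none to 16010, and only the first kind was used. Symbols were matched or updated through Entrez IDs for 23328 of them with a RefSeq table of GRCm38.p6. Each of 22180 genes was represented by the probe set with the highest mean over the DN3a and γδ arrays, a choice among probe sets for 1082 genes. No filter on low signal was applied. Groups came from the sample titles.

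Differences were fitted by lmFit and eBayes (limma 3.58.1, R 4.3.3) over the 12 DN3a and γδ arrays as 4 group means. ISP cells had their own fit of 7 arrays, and the interaction with ISP cells used all 19. P-values were adjusted by the Benjamini-Hochberg method over all genes, with a threshold of 0.05. Every adjusted p is limma's, and a difference is Rptor-/- minus WT. The fit of the 12 DN3a and γδ arrays was tested on simulated data, and the fits that include ISP arrays were not. Python 3.11.15 and matplotlib 3.10.9 drew the figures. Sequences came from RefSeq tables, in which all 8 called microRNA genes and 155 of the 221 called genes' promoters were matched.

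The members and 53 gene lists were chosen with earlier results of these data known. The named genes were Rptor, the 12 largest rises and falls among called genes without overlap, the 4 smallest p-values in each direction of each interaction, called list members or up to 4 with the smallest p, whole small families, and runs of adjacent called genes. Predicted genes, clone names and small RNA genes were passed over in the ranking. Named after their values were seen were the microRNA genes, Afdn, Arpp21, Btk, Fbp1, Gm20559, Gm4951, Ptpn14, Sik1, Slamf1, Smad7 and Tnfrsf18, and the genes called in all 3 populations. Alternatives were 10 other settings and each of the 6 DN3a arrays left out.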

Additional observations from a re-analysis of the deposited data

Results flagged for a closer look

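Each gene below was singled out because a limma interaction term found its Rptor-/- minus WT difference in DN3a cells to differ from that in another population (adjusted p under 0.05). The value in brackets is the DN3a difference minus the other population's difference, in log2 units. Against γδ T cells, the genes higher in Rptor-/- DN3a cells whose effect there was the more positive were Ifi204 (1.87), Khdc1a (1.84), Dtx1 (0.80), Khdc1c (1.65), Ogdhl (1.10), Tnfrsf8 (1.24), Vwce (1.04), Ifitm3 (1.07), Ets2 (0.76), Lef1 (0.66), Etv5 (0.91) and Gfra1 (0.76). Of the genes lower in Rptor-/- DN3a cells, the effect was the more negative there than in γδ T cells for Cpa3 (-1.47), Rgs18 (-1.26), Kit (-1.72), Il10rb (-0.85) and Smad7 (-0.74). The microRNA gene Mir181a-2 (-0.90) also had the more negative effect in DN3a cells. Not called in DN3a cells themselves but different in effect from γδ T cells were Lbp (1.17), Cd200r1 (-2.55), Xcl1 (-2.00), Klrd1 (-2.14) and Klra5 (-3.39).

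Against ISP cells, the genes higher in Rptor-/- DN3a cells whose effect there was the more positive were Ifi204 (1.78), Khdc1a (1.13), Mpzl2 (1.10), Smok4a (1.26), Akr1c12 (1.19), Trim30c (1.45), Uaca (2.40), Khdc1c (1.27), Sfrp2 (0.92), Ogdhl (1.02), Scn4b (1.31), Tnfrsf8 (1.31), Vwce (0.91), Myd88 (0.44), Ifitm3 (1.57), Cd3d (0.41), Mycn (0.58), Klf6 (0.58), Dhcr7 (0.64), Fads3 (0.71), Itga6 (0.54), Etv5 (1.13), Lyz2 (1.10), Ifi203-ps (0.71), Gfra1 (0.75), Gm4951 (1.59) and Fbp1 (1.01). Higher in DN3a cells but with the more positive effect in ISP cells were Samd9l (-0.73), Ets2 (-0.48), Txnip (-1.01), Nnat (-4.62) and Gm20559 (-1.78). Of the genes lower in Rptor-/- DN3a cells, the effect was the more negative there than in ISP cells for Cpa3 (-1.88), Actn2 (-1.34), Smim5 (-1.03), Fndc1 (-1.11), Camk4 (-1.16), Tdrd5 (-0.89), Rgs18 (-1.03), Sytl2 (-0.96), Clec12a (-0.96), Atrnl1 (-0.77), Atp13a2 (-1.04), Kit (-0.56), Ikzf2 (-1.25), Tnfaip3 (-1.06), Il4ra (-1.82), 5830411N06Rik (-1.06), Btk (-0.61) and Smad7 (-0.55). MicroRNA genes with a more negative effect in DN3a cells than in ISP cells were Mir1198 (-0.89), Mir128-2 (-1.66), Mir142 (-1.54), Mir181a-2 (-1.09), Mir181b-1 (-2.70), Mir1962 (-1.07), Mir23b (-0.83) and Mir505 (-2.09). Lower in DN3a cells but with the more negative effect in ISP cells were Trib1 (0.71) and Itga4 (0.73). Not called in DN3a cells themselves but different in effect from ISP cells were Id3 (2.31), Fads2 (1.80), Dnajc15 (1.93), Sqle (1.48), Sidt1 (-1.77), Mctp2 (-1.41), Snai3 (-1.33), Hspa1a (6.81), Hspa1b (6.30), Dnajb1 (0.76), Gsr (0.59), Prdx3 (0.71), Sod2 (0.83), Ptprc (-0.69), Notch3 (-1.08) and Bcl11b (-0.57). The Nnat value rests on 1 of its 2 probe sets, and ISP arrays lie on another scale, so scale and population cannot be told apart in these values. No explanation was tested.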

How the results depend on the processing

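Rptor kept its direction and its call under each of the 10 other settings and with each of the 6 DN3a arrays left out (-0.63 to -0.53, largest limma adjusted p 0.019). The count of 221 genes called in DN3a cells moved by over 1.5 times in a fit of the DN3a arrays alone (147) and with a variance prior that follows the mean (365), and it ranged from 88 to 212 with 1 array left out. The count of 97 genes whose effect differed from γδ T cells was 151 with that prior and 58 to 79 with 1 array left out, and the 1553 against ISP cells became 1009 to 1373. Other settings gave 170 to 312 calls in DN3a cells. Centring each array on its median gave 260 calls with 81.9% of them higher, against 72.9%, and raised the all-gene median to 0.05. With the replicate block 170 genes were called, 144 of them (65.2%) among the 221. The replicate numbers did not meet the criterion for pairing, a correlation of deviations over 0.1 in every pair. Same-numbered Rptor-/- and WT arrays correlated at 0.243, 0.013 and 0.17, and Rptor-/- replicate 2 correlated best with WT replicate 3 (0.111). Same-numbered DN3a and γδ arrays of 1 genotype correlated at 0.026 to 0.257, and those with different numbers at -0.213 to 0.111. Whether same-numbered DN3a and γδ samples shared a source was not tested. The main interaction with γδ T cells treats them as independent. Of 103 named genes called in DN3a cells, 52 to 82 stayed called with 1 array left out and 75 in the fit of the DN3a arrays alone, where 28 were lost. The Nnat log2 difference in DN3a cells reversed to -0.0616 with the probe set chosen over 19 arrays; the cause was not tested beyond the change of probe set. The number of arrays limits precision, and the smallest called difference was 0.33 log2 units.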

Other observations

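Small nucleolar and Cajal body RNA genes, a group chosen after the values were seen, had 2 of 78 measured genes lower in Rptor-/- DN3a cells (2.56%) and 0 higher in limma, against 0.271% lower and 0.726% higher of all genes. At an unadjusted p under 0.05, 9 were higher and 21 lower, against 1475 and 940 of all 22180 genes, and the median was -0.08. The called genes were Snord82 and Scarna8. Scarna8 read 6.45, 6.76 and 7.06 in Rptor-/- cells and 7.29, 7.36 and 7.36 in WT cells, and its difference of -0.58 lost its call without Rptor-/- replicates 1 or 2 or any WT replicate (largest limma adjusted p 0.177). In γδ T cells 11 of the 78 were higher and 0 lower (median 0.21), and in ISP cells 1 was higher and 4 lower (median -0.06). Over all 22180 genes, 397 were higher and 221 lower in γδ T cells, and 564 higher and 748 lower in ISP cells. For none of the 78 was the DN3a effect called as different from that in γδ T cells. For 9 it was called as different from that in ISP cells, against 1553 of all genes.

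Smad7, an inhibitor of TGF-β signalling, was 1 of 3 genes called in opposite directions in DN3a and γδ T cells. It read 7.29, 7.33 and 7.19 in Rptor-/- DN3a cells and 7.69, 7.61 and 7.79 in WT DN3a cells, a fall of 0.43, and rose by 0.32 in γδ T cells (limma adjusted p = 0.0369). The DN3a groups did not overlap, and the DN3a call was lost without WT replicates 1 or 3 (largest limma adjusted p 0.0706).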
